A study of Mus musculus with 189 samples.

Results

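The genes described here encode catalytic and paralogous subunits of Polycomb repressive complex 1 (PRC1) in mouse oocytes and preimplantation embryos. They are the RING genes Ring1 and Rnf2, the PCGF genes Bmi1 and Pcgf1 and the CBX genes Cbx6 and Cbx7. They were chosen by name as the 6 such subunits among 156 quantitative PCR assays that the authors marked as passed, of 192 assays in all. The oocytes came from superovulated F1 females (C57BL/6 x DBA/2), mated with C57BL6 males to obtain embryos, which were cultured in KSOMaa medium at low oxygen without any treatment. The main set held 168 samples, namely 11 MII oocytes, 14 zygotes, 21 samples of the 2-cell stage, 7 of the 3-cell stage, 12 of the 4-cell stage, 27 of the 8-cell stage, 26 of the 16-cell stage (morula) and 50 of the 32-cell stage (blastocyst). Single blastomeres, small groups of blastomeres and whole embryos of the 2-, 4- and 8-cell stages were averaged to 58 oocytes, zygotes and embryos before testing, because blastomeres of one embryo are not independent. The 16-cell stage held only 2 embryos and the 32-cell stage 7. Whole embryos of the 16- and 32-cell stages (3 each) lay outside the main set. They were described, and tested only where whole embryos are named. An isolated inner cell mass (ICM) and an isolated trophectoderm (TE), 1 sample each, and 10 samples of embryonic stem cell (ESC) RNA were used for description only.

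PRC1 attaches a single ubiquitin to histone H2A through its RING subunit, Ring1 or Rnf2, which pairs with one PCGF protein. In canonical PRC1 a CBX protein reads the trimethyl mark that PRC2 places on histone H3, whereas variant PRC1, such as the form built on Pcgf1, lacks a CBX subunit and does not need that mark for targeting. Rnf2 is the RING gene needed for development beyond gastrulation, and Cbx7 is known as the main CBX gene of ESCs.

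The 2 paralog pairs whose members changed in opposite directions, Ring1 with Rnf2 and Cbx6 with Cbx7, are shown by the sequence around their start sites. Each line holds 250 bases before and 50 after the start on the strand of the gene, from RefSeq on GRCm38.p6, and capitals mark matches on either strand to the motif TGACGT, the motif CACGTG or the motif GGGCGG.
Ring1: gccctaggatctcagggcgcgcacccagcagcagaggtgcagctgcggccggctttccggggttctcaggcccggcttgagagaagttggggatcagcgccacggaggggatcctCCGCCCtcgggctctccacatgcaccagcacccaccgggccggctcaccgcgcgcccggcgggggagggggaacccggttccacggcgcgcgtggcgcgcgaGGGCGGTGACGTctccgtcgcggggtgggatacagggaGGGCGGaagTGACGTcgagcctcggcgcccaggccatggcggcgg
Rnf2: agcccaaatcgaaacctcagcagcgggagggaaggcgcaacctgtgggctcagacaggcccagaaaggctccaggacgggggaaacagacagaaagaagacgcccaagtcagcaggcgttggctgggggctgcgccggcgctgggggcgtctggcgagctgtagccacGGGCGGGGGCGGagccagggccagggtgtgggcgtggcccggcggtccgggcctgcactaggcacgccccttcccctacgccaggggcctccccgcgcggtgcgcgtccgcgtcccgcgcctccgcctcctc
Cbx6: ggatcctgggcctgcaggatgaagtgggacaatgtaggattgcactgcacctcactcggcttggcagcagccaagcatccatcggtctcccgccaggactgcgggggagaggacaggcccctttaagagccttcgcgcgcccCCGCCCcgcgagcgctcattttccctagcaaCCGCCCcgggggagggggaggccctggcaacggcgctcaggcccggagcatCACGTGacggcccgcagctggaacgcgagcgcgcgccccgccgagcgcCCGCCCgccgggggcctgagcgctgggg
Cbx7: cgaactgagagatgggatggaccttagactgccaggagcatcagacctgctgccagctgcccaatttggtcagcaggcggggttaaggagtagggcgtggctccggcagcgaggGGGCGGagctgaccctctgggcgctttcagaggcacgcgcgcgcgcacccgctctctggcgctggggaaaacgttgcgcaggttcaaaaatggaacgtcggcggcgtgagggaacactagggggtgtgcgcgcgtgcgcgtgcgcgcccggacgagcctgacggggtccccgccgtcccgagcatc
The windows lie at chr17:34024631-34024930, chr1:151500942-151501241, chr15:79834284-79834583 and chr15:79932597-79932896, all on the minus strand. Each covers an annotated start of a protein-coding gene, and the Cbx7 window lies inside the Cbx7 gene (79915804 to 79971143), whose annotation reaches farther upstream. TGACGT occurred 2 times in the Ring1 window and in none of the other 3, against 7.51% of 32851 mouse promoter windows of the same length. CACGTG had 1 match in the Cbx6 window, against 7.15% of promoters, and GGGCGG in every one of the 4 windows, against 35.7% of promoters. No base was shared by matches of different motifs. All 5 genes with an entry, Bmi1 included, were rich in CpG, with 23 to 37 CpG per window against a median of 7 over all promoters. A match is a sequence description and was not tested as a binding site. Cbx6 and Cbx7 both lie on chromosome 15, with 81470 bases between the annotated genes and 2 other genes starting between them.

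Levels are given as log2 values, computed as 30 minus the cycle threshold (Ct), minus the mean of the same over the control genes Hnrnpr, Ssu72 and Ube2e1 in the sample. A Ct of 30 marks an assay without detection, which gave a value from -17.08 on average in MII oocytes to -12.46 in 32-cell samples. The mean Ct of the control genes rose from 12.92 ± 0.33 (SD, n = 11) in MII oocytes to 17.54 ± 1.25 (SD, n = 50) in 32-cell samples. A smaller sample thus has less room between the level of its control genes and its lowest detectable level. Comparisons without undetected values can therefore leave out more of the low levels in smaller samples, and how far this moved them was not tested. Assays differ in efficiency, hence levels were compared between stages and not between genes. In samples of several cells, fewer cells with a transcript and less transcript per cell cannot be told apart. The oocyte gene Dazl was detected in 11 of 11 MII oocytes and 8 of 50 32-cell samples, and the zygotic gene Nanog in 0 of 11 and 50 of 50.

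**Figure D1:**
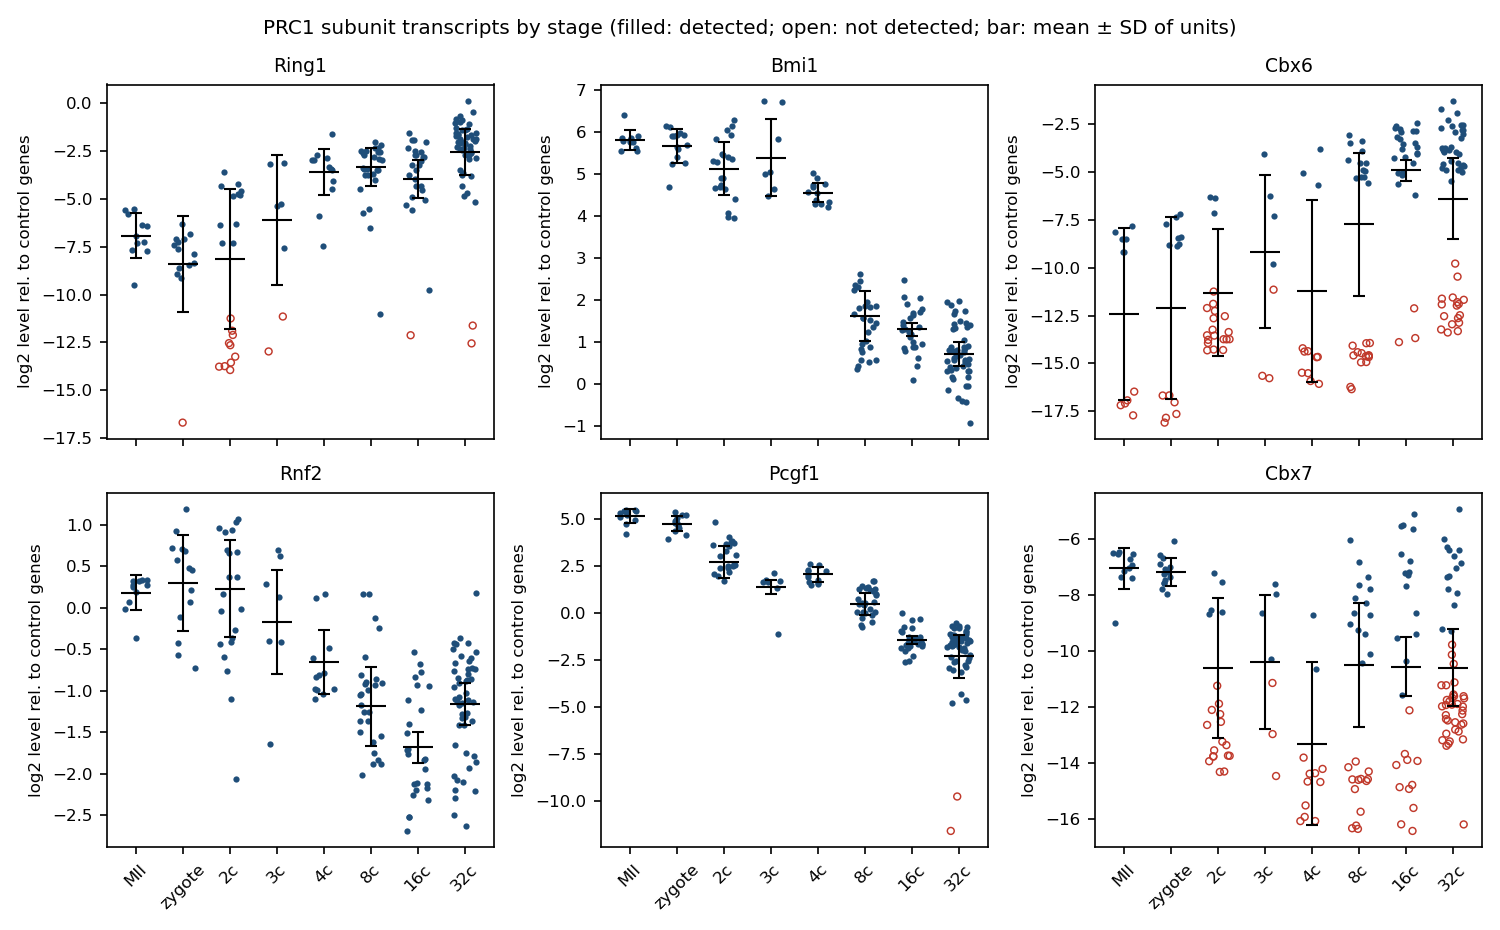
Log2 level of each gene relative to the control genes (y axis) in every sample of the main set by stage (x axis). Filled points are detected, open points not detected, and bars give mean ± SD over oocytes, zygotes or embryos. Bmi1 and Rnf2 were detected in all samples. Cbx6 split into detected and undetected samples at every stage, and Cbx7 from the 2-cell stage on.

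Between MII oocytes and the 9 embryos of the 16- and 32-cell stages, Ring1 and Cbx6 rose whereas Rnf2, Bmi1, Pcgf1 and Cbx7 fell (limma, two-sided, Benjamini-Hochberg over all 156 assays). All 6 genes thus changed, beside 84.6% of all assays (37.8% higher and 46.8% lower), so the number of changed genes does not set these subunits apart. The rises of Ring1 and Cbx6 did not pass without normalization (-0.23, adjusted p = 0.855 and 2.07, adjusted p = 0.301) or on the deposited normalized values, which leaves 4 of the 6 calls on these scales. The fall of Cbx7 did not pass without undetected values (-0.28, adjusted p = 0.466). The median difference was -2.49 over the 6 genes and -0.35 over all assays. The values of oocytes and late embryos did not overlap for 4 of the 6 genes, Ring1, Rnf2, Bmi1 and Pcgf1, beside 57.7% of all assays. From MII oocyte to zygote 0 of the 6 genes changed, beside 1.92% of all assays (0.641% higher and 1.28% lower). From zygote to 2-cell 3 fell and 0 rose, beside 68.6% of all assays (29.5% higher and 39.1% lower).

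From 2- to 4-cell 1 of the 6 genes rose and 2 fell, beside 32.7% of all assays (7.05% higher and 25.6% lower). From 4- to 8-cell 1 rose and 2 fell, beside 49.4% (13.5% higher and 35.9% lower). From 8- to 16-cell 1 fell, beside 28.2% (19.9% higher and 8.33% lower), and from 16- to 32-cell 0 changed, beside 10.9% (8.97% higher and 1.92% lower). In both steps without a call, 0 genes had an unadjusted limma p below 0.05, while other settings called up to 4 from 16- to 32-cell.

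Ring1, one of the RING ubiquitin ligases, was low in MII oocytes, with values from -9.50 through a median of -6.94 to -5.51. It was not detected in 1 of 14 zygotes and in 10 of 21 samples of the 2-cell stage, whereas all 12 samples of the 4-cell stage and all 27 of the 8-cell stage were detected. The 2-cell embryos were spread from -13.94 through -7.81 to -3.61, and they overlapped with the 4-cell embryos at -5.82 through -3.22 to -2.70. The control genes had a mean Ct of 17.14 in 2-cell samples without and 15.84 in those with Ring1, and the part of this difference in the detection was not tested. Ring1 rose from a mean of -8.14 ± 3.64 (SD, n = 8) at the 2-cell stage to -3.62 ± 1.19 (SD, n = 6) at the 4-cell stage, by 4.52 ± 1.15 (SE, limma adjusted p = 0.00254). The step from MII oocyte to zygote did not pass the test, with a difference of -1.49 ± 0.86 (SE, limma adjusted p = 0.402).

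The time of the Ring1 rise depended on the undetected samples and on the kind of 2-cell sample. Without undetected values, Ring1 rose by 2.50 from zygote to 2-cell (limma adjusted p = 1.58e-05) and by 1.65 from 2- to 4-cell (adjusted p = 0.0238). Among whole 2-cell embryos the values were -3.61, -4.22 and, not detected, -13.94, so that 2 of the 3 already lay within the range of 4-cell embryos. With these 3 as the only 2-cell samples, the rise to the 4-cell stage was 3.64 and lost its call (adjusted p = 0.144). In late embryos Ring1 reached -4.65 to -1.35 with a median of -2.36, above all MII oocytes. The difference to oocytes was 4.07 ± 0.96 (SE, limma adjusted p = 0.000139).

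Rnf2, the other RING ligase, was detected in all 168 samples and moved within a narrow range. MII oocytes lay between -0.36 and 0.34 with a median of 0.27, and late embryos between -1.82 and -0.78 with a median of -1.24. Rnf2 fell by 1.46 ± 0.21 (SE, limma adjusted p = 1.15e-08), a 2.75-fold decrease if each cycle doubles the product. Of the single steps, 2- to 4-cell passed the test with a fall by 0.88 ± 0.25 (SE, limma adjusted p = 0.0068). The values of both stages overlapped, since 4-cell embryo 2 lay at 0.12 and all others between -0.98 and -0.68. Without normalization the direction turned (0.40, adjusted p = 0.544). The call was also lost with single cells only (adjusted p = 0.382), with whole oocytes and embryos only (adjusted p = 0.281, and 0.998 without normalization) and without the 2-cell samples titled 2c.A (adjusted p = 0.116).

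The difference between Ring1 and Rnf2 within a sample does not depend on the control genes. It was tested for all 12090 pairs of assays, of which 82.7% changed between MII oocytes and late embryos. In MII oocytes Ring1 minus Rnf2 ranged from -9.14 through -7.01 to -5.76, and in late embryos from -3.63 through -1.24 to -0.44, without overlap. How many of all pairs did not overlap was not counted. The shift towards Ring1 was 5.53 ± 1.00 (SE, limma adjusted p = 1.96e-06). Of the steps of this pair, 2- to 4-cell passed the test with 5.41 ± 1.20 (SE, limma adjusted p = 0.000853), beside 23.3% of all pairs. With whole oocytes and embryos only, this step was 4.95 and did not pass (adjusted p = 0.194), nor did it without the 2c.A samples (adjusted p = 0.173). Without undetected values the pair already rose from zygote to 2-cell, by 2.67 (adjusted p = 2.61e-05), and the step from 2- to 4-cell was 2.45 (adjusted p = 0.0033). From MII oocyte to zygote and from 8- to 16-cell none of the 3 paralog differences passed as fitted over embryos, beside 1.58% and 21.9% of all pairs.

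Bmi1, a PCGF subunit of canonical PRC1, was abundant in oocytes and fell mainly at one step. It ranged from 5.54 to 6.40 in MII oocytes (median 5.80) and from 4.29 to 4.89 in 4-cell embryos (median 4.56). In 8-cell embryos it ranged from 0.67 to 2.61 (median 1.59), without overlap with the 4-cell stage, as for 27.6% of all assays. From the 4- to the 8-cell stage Bmi1 fell by 2.94 ± 0.25 on the log2 scale (SE, limma adjusted p = 5.18e-14), or 7.66-fold. From zygote to 2-cell Bmi1 fell by 0.55 ± 0.20 (SE, adjusted p = 0.0145). This earlier call was lost without Hnrnpr as a control gene (adjusted p = 0.656) and with only whole embryos at the 2-cell stage (adjusted p = 0.629). Late embryos lay between 0.29 and 1.41 with a median of 0.82. From 16- to 32-cell the fall of 0.59 did not pass (adjusted p = 0.331). It passed under other settings, such as sample medians (-0.84, adjusted p = 0.0249) and the embryo as a random block (-0.59, adjusted p = 0.0183). With whole oocytes and embryos only it also passed (-0.78, adjusted p = 0.0493). From oocytes Bmi1 fell by 4.97 ± 0.21 (SE, adjusted p = 2.93e-28) or 31.3-fold.

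Pcgf1, the PCGF subunit of a variant PRC1 that binds CpG islands through Kdm2b, fell in steps over most of the time course. MII oocytes ranged from 4.22 through 5.27 to 5.48 and zygotes from 3.96 through 4.79 to 5.40. At the 2-cell stage embryos lay between 1.71 and 4.07, having decreased by 2.03 ± 0.28 (SE, limma adjusted p = 7.52e-09). It fell again from the 4- to the 8-cell stage by 1.57 ± 0.35 (SE, adjusted p = 0.000167), where the embryos did not overlap, as for 27.6% of all assays. Without normalization that call was lost (-1.24, adjusted p = 0.0698, and -0.71, adjusted p = 0.25 in whole embryos). The 16-cell embryos, at -1.59 and -1.28, lay below all 8-cell embryos, beside 36.5% of all assays without overlap at this step. Pcgf1 fell by 1.92 ± 0.51 (SE, adjusted p = 0.00392). That call rests on 2 embryos and was lost without 16-cell embryo 4 (adjusted p = 0.0857), and the content of whole embryos without normalization did not fall at this step (0.10, adjusted p = 0.841).

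Over the whole course Pcgf1 fell by 7.28 ± 0.28 on the log2 scale (SE, limma adjusted p = 2.35e-29), 155-fold and the largest fall of the 6 genes. Late embryos ranged from -4.00 through -1.59 to -1.28. It was still detected in all but 2 of the 76 late samples. From 16- to 32-cell its fall of 0.87 did not pass (adjusted p = 0.277). With whole oocytes and embryos only that step passed (-1.17, adjusted p = 0.00503). The 3-cell embryos held 0.93, 1.56 and 1.63, and 3-cell embryos were not part of a test.

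Both PCGF genes fell, but not in parallel. Pcgf1 minus Bmi1 went from a mean of -0.92 ± 0.21 (SD, n = 14) in zygotes to -2.40 ± 1.34 (SD, n = 8) at the 2-cell stage, a shift of -1.48 ± 0.36 (SE, limma adjusted p = 0.00025), beside 72.3% of all pairs. With single cells only, this shift was -0.66 and did not pass (adjusted p = 0.296). It moved back by 1.37 ± 0.45 (SE, adjusted p = 0.00989) from the 4- to the 8-cell stage, where Bmi1 fell more, beside 47.2% of pairs. Between oocytes and late embryos the shift was -2.31 ± 0.36 (SE, adjusted p = 1.1e-07), in the direction of less Pcgf1 relative to Bmi1. The step from 8- to 16-cell, -1.60 with an adjusted p of 0.0691, depended on the setting: it passed without undetected values (adjusted p = 0.0258), without the 2c.A samples (adjusted p = 0.0259), with whole embryos only (adjusted p = 0.00135), with every sample as a replicate (adjusted p = 6.87e-06) and with the replicate block (adjusted p = 8.35e-11).

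**Figure D2:**
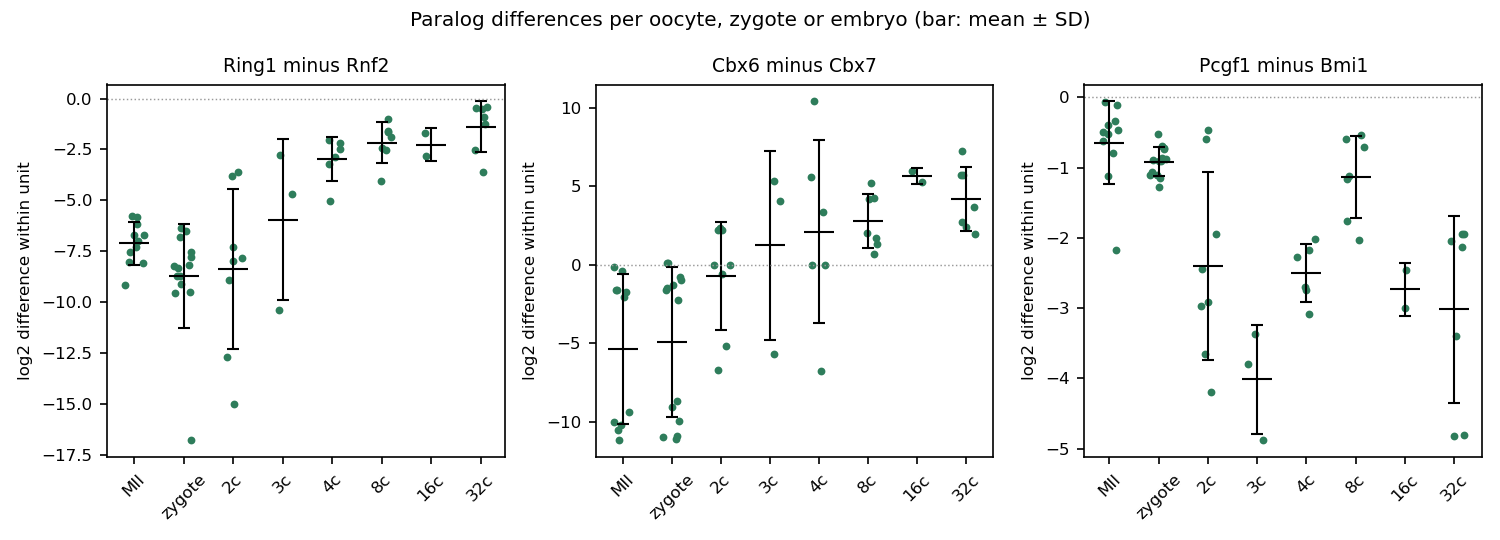
Difference of the log2 values of 2 paralogs within an oocyte, zygote or embryo (y axis) by stage (x axis); points are single units and bars mean ± SD. Ring1 minus Rnf2 moved from -7.10 in MII oocytes to -2.97 at the 4-cell stage, and Cbx6 minus Cbx7 from -5.36 to 5.65 at the 16-cell stage.

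Cbx6, a chromodomain gene, was at the limit of detection in early samples and frequent in late ones. It was not detected in 5 of 11 MII oocytes, 6 of 14 zygotes, 18 of 21 samples of the 2-cell stage, 3 of 7 of the 3-cell stage and 9 of 12 of the 4-cell stage. At the 8-cell stage 14 of 27 samples were without detection, at the 16-cell stage 3 of 26, and at the 32-cell stage 17 of 50. Detected values rose from a range of -9.17 to -7.79 in MII oocytes to a range of -6.17 to -1.26 in late samples, without overlap. The control genes had a mean Ct of 12.92 in MII oocytes and 17.54 in 32-cell samples. A 32-cell sample at an oocyte level would thus need a higher Ct and could go undetected. How far this sets the gap was not tested.

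Cbx6 embryo means lay between -8.57 and -2.84 in late embryos (median -6.68) against -17.72 to -7.79 in oocytes (median -9.17), with overlap. The difference was 6.37 ± 1.80 (SE, limma adjusted p = 0.00118), and 4.83 ± 0.43 (SE, adjusted p = 1.12e-12) without undetected values. No single step passed the test as fitted over embryos. The step from the 4- to the 8-cell stage was 3.49 ± 2.23 (SE, adjusted p = 0.202), and only with values below -10 set to -10 did it pass, with 1.97 (adjusted p = 0.0475). Without undetected values Cbx6 rose from zygote to 2-cell by 1.57 (adjusted p = 0.0112) and from 2- to 4-cell by 1.79 (adjusted p = 0.0344). From 8- to 16-cell it rose by 4.90 with every sample as a replicate (adjusted p = 0.000122), by 4.58 with the embryo as a random block (adjusted p = 0.0142) and by 5.28 with the replicate block (adjusted p = 4.69e-05).

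At the 8-cell stage Cbx6 was detected in all whole embryos and in part of the single blastomeres. The 3 whole embryos lay at -3.38, -3.46 and -4.53, whereas 14 of the 24 single blastomeres were without detection. Within embryos the single 8-cell blastomeres had an SD of 5.42, the widest of all 156 assays (median 0.64). Whether these blastomeres lacked the transcript or fell under the limit of the assay was not tested. The control genes had a mean Ct of 15.26 in the 14 single blastomeres without and 15.14 in the 10 with Cbx6.

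Cbx7, the other chromodomain gene, was detected in all 11 MII oocytes and 14 zygotes. MII oocytes ranged from -9.00 through -6.92 to -6.47 and zygotes from -7.98 through -7.22 to -6.07. At the 2-cell stage 16 of 21 samples were without detection and at the 4-cell stage 10 of 12. From zygote to 2-cell Cbx7 fell by 3.42 ± 0.75 (SE, limma adjusted p = 6.62e-05), and by 0.93 (adjusted p = 0.0246) without undetected values. The control genes had a mean Ct of 16.85 in 2-cell samples without and 15.19 in those with Cbx7.

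From the 2- to the 4-cell stage Cbx7 fell by 2.72 ± 0.92 (SE, limma adjusted p = 0.0215). From the 4- to the 8-cell stage it rose by 2.82 ± 0.94 (SE, adjusted p = 0.0114). The fall was lost with the embryo as a random block (-2.39, adjusted p = 0.106), the replicate block (adjusted p = 0.132), every sample as a replicate (adjusted p = 0.0761), no normalization (-1.43, adjusted p = 0.408), without the 2c.A samples (adjusted p = 0.129) and with whole oocytes and embryos only (-1.41, adjusted p = 0.517). The rise was lost without normalization (adjusted p = 0.0554). With values below -10 set to -10 neither passed (adjusted p = 0.192 and 0.0679), and without undetected values the fall passed (-1.58, adjusted p = 0.0374) and the rise did not (1.14, adjusted p = 0.0922). The 3 whole 8-cell embryos were all detected, between -8.71 and -7.64, against 1 undetected among the 3 whole 4-cell embryos. Later, 11 of 26 samples of the 16-cell stage and 35 of 50 of the 32-cell stage were without detection.

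Between MII oocytes and late embryos Cbx7 fell by 3.53 ± 0.76 (SE, limma adjusted p = 3.73e-05). Without undetected values the difference was -0.28 ± 0.36 (SE, adjusted p = 0.466), as detected late samples had a median of -7.20 against -6.92 in oocytes.

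The difference between the CBX genes moved towards Cbx6 over the time course. Its zero has no meaning as a ratio of levels, since the efficiency of each assay is unknown here, and a sample with neither gene detected has a difference of 0. Cbx6 minus Cbx7 ranged from -11.18 through -2.03 to -0.17 in MII oocytes and from 1.95 through 5.31 to 7.28 in late embryos, without overlap. For this pair too, the share of all pairs without overlap was not counted. The shift was 9.90 ± 1.86 (SE, limma adjusted p = 4.11e-06), beside 82.7% of all pairs that changed. Without undetected values it was 4.92 ± 0.63 (SE, adjusted p = 3.46e-08). The step from zygote to 2-cell passed with 4.21 ± 1.84 (SE, adjusted p = 0.0372), where 15 of 21 samples had neither gene detected. With single cells only, that step did not pass (4.73, adjusted p = 0.105). From 8- to 16-cell the difference passed with every sample as a replicate (3.88, adjusted p = 0.00655) and with the replicate block (4.25, adjusted p = 0.00318), but not as fitted over embryos.

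Presence of the CBX genes was also uneven between samples of one stage. In the 76 late samples both were detected in 29, only Cbx6 in 27, only Cbx7 in 1 and neither in 19. In MII oocytes the order was opposite, with both in 6, only Cbx7 in 5 and only Cbx6 in 0. At the 8-cell stage both were detected in 7 of 27 samples, only Cbx6 in 6, only Cbx7 in 7 and neither in 7.

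Values relative to control genes follow these genes too, so whole oocytes and embryos were also read without normalization, as 30 minus Ct per embryo. The control genes averaged 17.08 in MII oocytes, 15.48 in whole 2-cell embryos, 19.26 in whole 16-cell and 17.35 in whole 32-cell embryos. Ring1 content was 16.57, 17.49 and 17.89 in the 16-cell embryos and 15.71, 16.42 and 16.49 in the 32-cell embryos, all above the MII oocytes (8.22 to 11.42). Its difference between oocytes and the late whole embryos was 6.61 ± 1.23 (SE, limma adjusted p = 1.02e-05).

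Cbx6 content was 15.61, 16.44 and 17.24 in 16-cell and 11.60, 12.59 and 13.12 in 32-cell embryos, above the highest oocyte at 9.35. The difference was 9.78 ± 2.12 (SE, limma adjusted p = 8.59e-05). Pcgf1 content fell by 6.37 ± 0.29 (SE, adjusted p = 3.02e-20) and that of Bmi1 fell by 3.77 ± 0.25 (SE, adjusted p = 4.46e-16). Rnf2 fell by 0.65 ± 0.26 (SE, adjusted p = 0.0256). Its 16-cell embryos, at 16.79 to 17.96 with a mean of 17.46, overlapped with the oocytes at 16.67 to 17.53 with a mean of 17.26, whereas its 32-cell embryos, at 14.81 to 16.39, all lay below them.

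Cbx7 content fell from 10.02 ± 0.86 (SD, n = 11) in MII oocytes to 4.06 ± 3.58 (SD, n = 3) in 4-cell embryos. It was 9.74, 10.07 and 10.70 in 16-cell embryos, within the oocyte range of 8.04 to 11.18, and 4.85, 6.59 and 6.82 in 32-cell embryos, below it. Over both late stages together it fell by 1.89 ± 0.79 (SE, limma adjusted p = 0.0279).

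**Figure D3:**
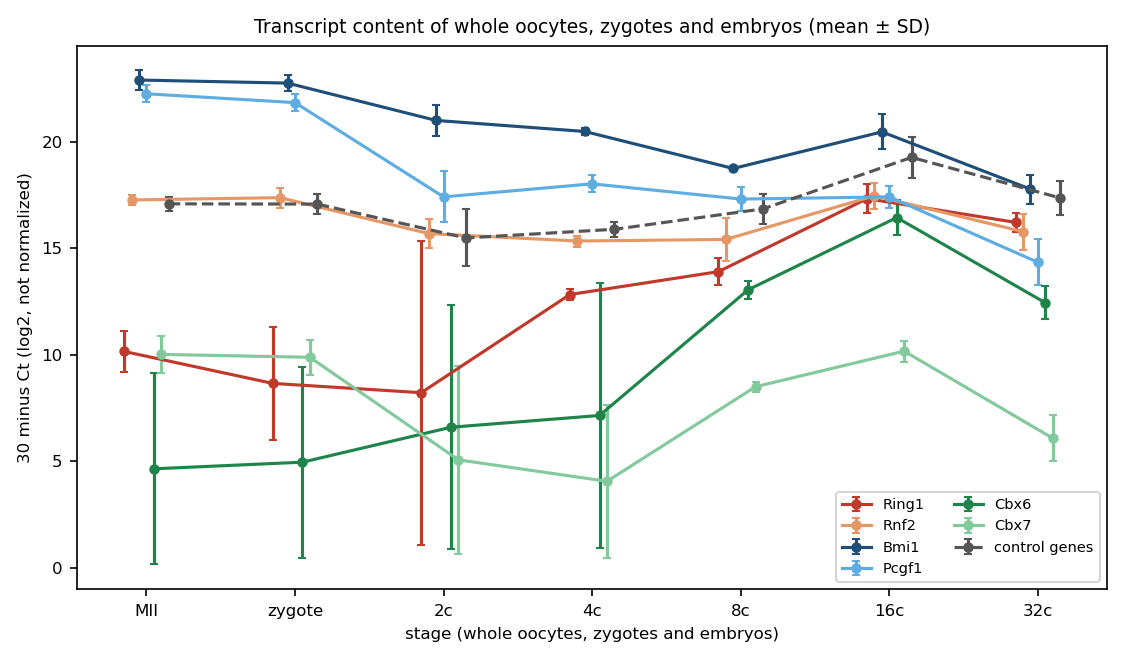
30 minus Ct (log2 scale, not normalized; y axis) in MII oocytes, zygotes and whole embryos by stage (x axis), as mean ± SD with 11, 14 and then 3 samples per stage; the dashed line is the mean of the control genes. Ring1 and Cbx6 reached 17.32 and 16.43 at the 16-cell stage, and Pcgf1 went from 22.24 in MII oocytes to 14.33 at the 32-cell stage.

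The rises of Ring1 and Cbx6 depended on the scale. On 30 minus Ct of blastomere samples without normalization, a blastomere being a fraction of the oocyte volume, Ring1 differed by -0.23 (limma adjusted p = 0.855) and Cbx6 by 2.07 (adjusted p = 0.301). On the deposited normalized values, which use Gapdh, Hspa8 and Lmnb1, the differences were 0.51 (adjusted p = 0.629) and 2.81 (adjusted p = 0.134). The falls of Rnf2, Bmi1 and Pcgf1 passed the test on each of these scales. The paralog differences are the same on any scale by construction.

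**Figure D4:**
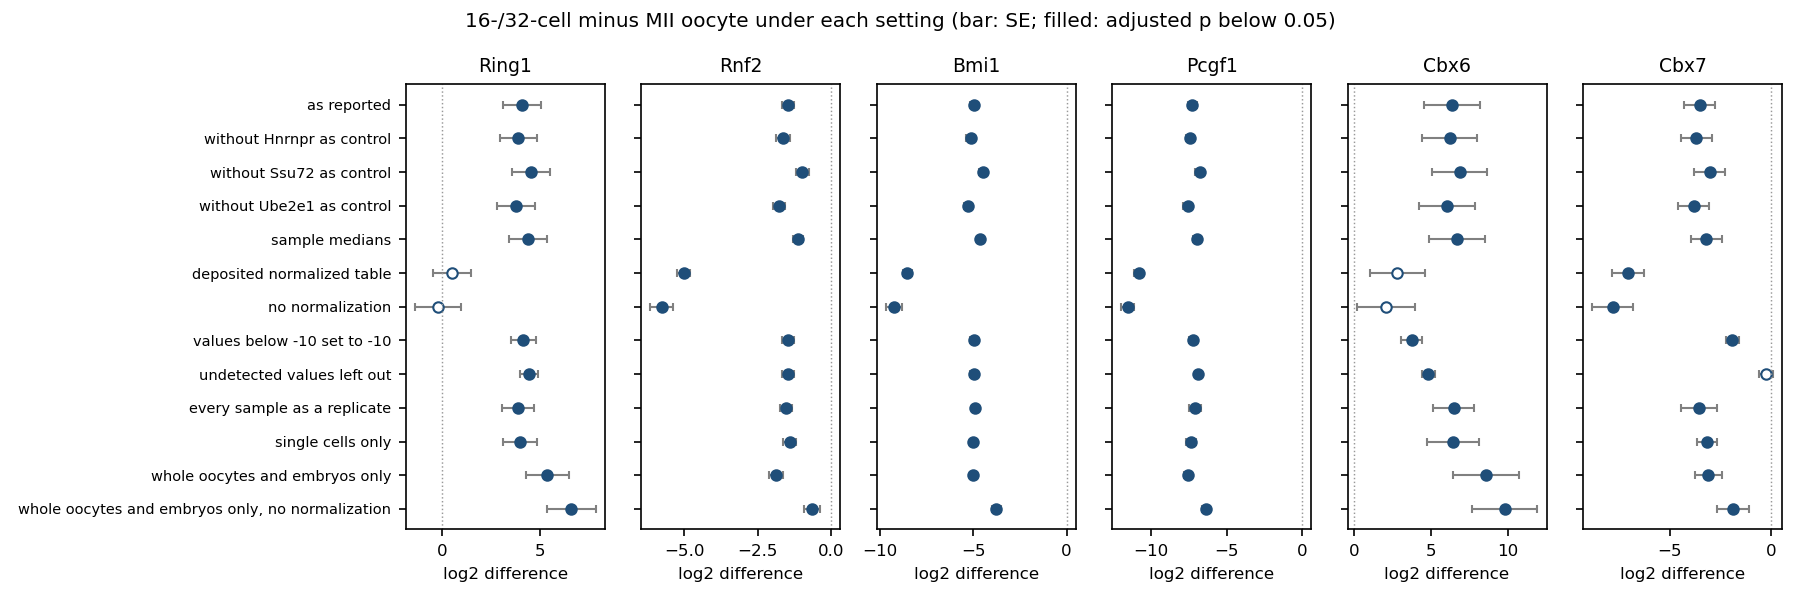
Difference in log2 value between the 16-/32-cell stage and MII oocytes (x axis) for each gene, under the setting of the text and 12 alternatives (y axis). Bars are SE, and filled points have a limma adjusted p below 0.05. Ring1 was 4.07 as reported and -0.23 without normalization, whereas Bmi1 and Pcgf1 stayed below zero throughout.

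Blastomeres of the 16- and 32-cell stages were compared along a lineage score, the mean of 12 ICM genes minus the mean of 8 TE genes. The study chose both lists on these samples, and none of the 6 subunits is in them. After subtracting embryo means, Spearman's rho with the score over 76 samples of 9 embryos was 0.17 for Cbx6, 0.14 for Rnf2, 0.10 for Bmi1, 0.00 for Cbx7 and Pcgf1, and -0.12 for Ring1. Over all 156 assays rho ranged from -0.88 to 0.81 with a median of 0.10, so no subunit stood near either end. Samples of one embryo share their origin and control genes, and no test was made.

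At the 16-cell stage alone (26 samples of 2 embryos) rho was 0.52 for Pcgf1, 0.38 for Bmi1 and 0.37 for Rnf2, positive in both embryos. These ranked 24, 42 and 45 of 156 assays from the highest. Cbx6 was at 0.34 (positive in 1 of 2 embryos), Cbx7 at -0.22 and Ring1 at -0.13. At the 32-cell stage alone (50 samples) Pcgf1, Bmi1 and Rnf2 gave -0.24, -0.05 and -0.02. The sample labelled ICM had a mean of 0.23 over the ICM genes against -2.64 in the sample labelled TE. It was not free of TE genes, with a mean of 0.71 against 1.61 and Cdx2, a TE marker, at 0.43 against 1.84. The samples labelled ICM and TE, with 1 sample each and therefore no replicate, came from different embryos. Differences between lineages and between embryos cannot be told apart in them. They held Bmi1 at 1.14 and 0.14, Pcgf1 at -1.70 and -2.76, Rnf2 at -0.78 and -1.26, Ring1 at -1.69 and -1.24, Cbx6 at -4.35 and -5.89, and Cbx7 at -9.10 and -9.69.

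**Figure D5:**
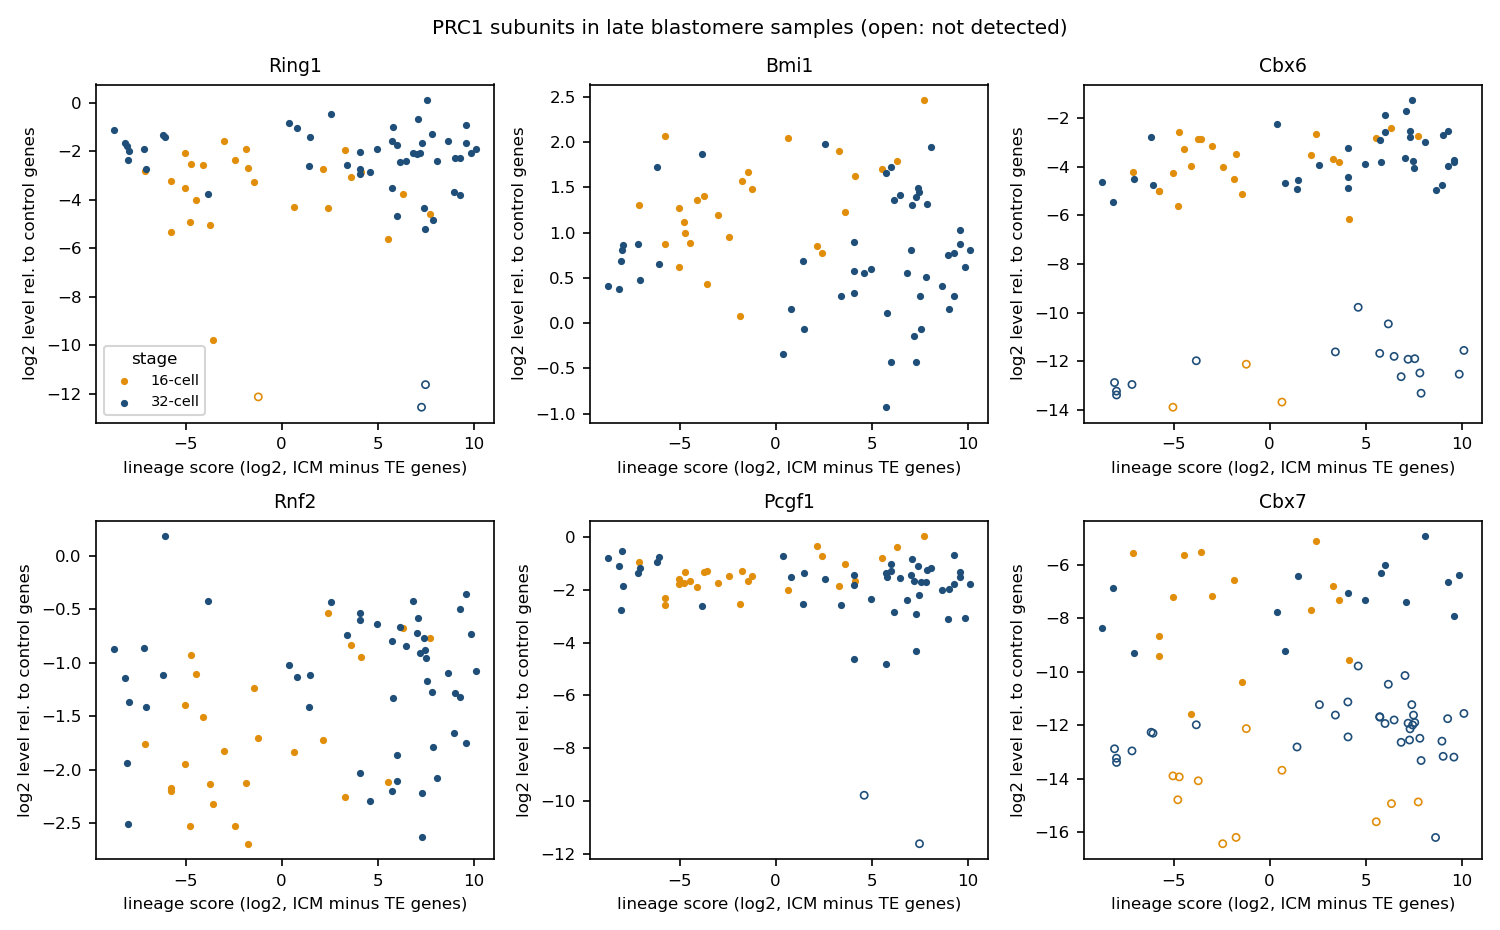
Log2 level of each gene relative to the control genes (y axis) against the lineage score (x axis; higher means more ICM than TE transcripts) in 76 late blastomere samples, coloured by stage. Open points are not detected. Levels of the 6 genes were spread over the whole score range, with rho between -0.12 and 0.17 within embryos.

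The spread between late samples of one embryo differed between paralogs. Cbx6 had a within-embryo SD of 3.81 (rank 23 of 156 from the widest), Cbx7 of 3.05 (rank 38) and Ring1 of 2.18 (rank 54), against a median of 1.36 over all assays. Pcgf1 was near the median with 1.57. Rnf2 with 0.63 and Bmi1 with 0.59 (rank 118 and 130) were among the more even. Cbx6 and Cbx7 were without detection in 20 and 46 of the 76 late samples, Ring1 and Pcgf1 in 3 and 2, Rnf2 and Bmi1 in 0. The SDs include these undetected values, and their part in the spread was not tested. For Pcgf1 the SD was 0.64 (rank 105) at the 16-cell stage, with 0 undetected samples. At the 32-cell stage, with 2 undetected, it was 1.90 (rank 64).

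In ESC RNA, Cbx7 was detected in all 10 samples at -4.43 to -2.49 (median -3.33), above the highest value of any oocyte or embryo sample of the main set, -4.94. Bmi1 lay between -3.02 and 0.01 (median -1.86), against -0.93 to 1.98 in 32-cell samples. Rnf2 lay between -0.54 and 1.23, Pcgf1 between -2.13 and -0.48, and Cbx6 between -3.17 and -2.07 in 9 samples with detection. Ring1 was detected in 7 of 10, at -5.14 to -2.80. ESC RNA was a dilution of purified RNA, and no test against embryos was made.

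The dilutions also show how the assays respond. Between the 3 samples of 200 pg the SD of Ct was 0.09 for Pcgf1 to 0.57 for Cbx7. A doubling of RNA should lower Ct by 1 cycle, and over all assays the median slope was -1.05 and -1.14 in the 2 dilution series. Rnf2 gave -0.93 and -1.13, Cbx7 -1.04 and -1.37, and Pcgf1 -1.52 and -1.09. Bmi1 gave -0.27 and -1.37. Ring1 had too few detected dilutions for a slope, with no detection at 25, 32 and 50 pg.

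The assays whose pattern over the 58 oocytes, zygotes and embryos was most like that of each subunit were taken by Pearson's r, as a description since the values share stages and control genes. They were Jhdm1d (0.97) and Phc2 (0.96) for Bmi1, Tet3 (0.95) and Kdm1b (0.94) for Pcgf1, and Sfmbt1 (0.88) and Whsc1 (0.85) for Rnf2. Cbx7 was most like Jmjd8 (0.75) and Setd1b (0.74), Ring1 like Kdm3b (0.63) and Yy1 (0.62), and Cbx6 like Lrpap1 (0.52) and Nanog (0.52). Among the subunits, Bmi1 and Pcgf1 had an r of 0.88 and Ring1 and Rnf2 an r of -0.63.

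The list of other Polycomb genes held 16 with passed assays, counting the H3K27 demethylases Kdm6a and Kdm6b, which are not Polycomb genes themselves. Between MII oocytes and late embryos 13 fell and 3 rose, with a median of -2.09, beside 46.8% and 37.8% of all assays. Both demethylases were among the 13. All 5 further PRC1 genes and partners fell (Phc2, Scmh1, Scml2, L3mbtl3 and Kdm2b), led by Scml2 with a fall by 12.12 ± 1.09 (SE, limma adjusted p = 9.88e-15). Kdm2b, the partner that recruits Pcgf1 complexes, fell by 2.01. The risers were Yy1, a DNA-binding Polycomb recruiter, with 3.64 ± 0.98 (SE, adjusted p = 0.000691), and the PRC2 cofactors Mtf2 with 2.90 and Jarid2 with 0.81. The PRC2 core genes Ezh2, Eed and Suz12 fell by 2.18, 2.19 and 1.39. Scmh1 is one of the 12 ICM genes that the study chose on these samples.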

How the data were processed

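Reverse transcription, preamplification and EvaGreen quantitative PCR on BioMark chips were run by the authors on cells, blastomere groups and whole embryos. The authors deposited Ct values (a score in PCR cycles, undetected set to 30) for 192 assays in 189 samples, and a normalized table in log2 units. The values show that this log2 table is 30 minus Ct relative to Gapdh, Hspa8 and Lmnb1. The methods name Hnrnpr, Ssu72 and Ube2e1, which were used here. The 36 assays marked as failed were left out. Genome build and annotation of the assays are not given in the sources used here.

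Samples were averaged per oocyte, zygote or embryo (11 2-cell blastomeres of unnamed embryos as 1 unit), and all stages were fitted together with limma 3.58.1 in R 4.3.3, with a threshold of 0.05 on adjusted p. The paralog differences were fitted over all pairs of assays. Descriptions used pandas 2.3.3 and scipy 1.17.1. The genes, lists and tests were chosen with earlier results of these data known, and named other genes were the largest riser and faller of the Polycomb list, those in counts of 5 or fewer, and the 2 most similar assays per gene; Kdm2b, Ezh2, Eed and Suz12 were added after their values were seen. There were 0 pairs of samples with identical values. Where the labels name no separate animals, p-values measure the spread between these samples. For 5 samples, 3 titled 2-cell and 2 titled 3-cell, the labels do not make the cell number clear. Tested on simulated data with 40 shifted assays, the comparison of MII oocytes with late embryos (156 assays) recovered 54% of shifts of 1, 78% of shifts of 2 and 94% of shifts of 4 log2 units. Depth is not defined for PCR, and precision is set by the number of embryos. Alternatives covered control genes, normalization, undetected values, units and samples.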

Additional observations from a re-analysis of the deposited data

Results flagged for a closer look

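In groups of 4 to 10 embryos, each group's highest and lowest value was compared with its neighbour by Dixon's test, over 24 groups of a gene and a stage. A value apart from the rest was found in 2 of them, and chance alone flags about 1 in 20 groups. Ring1 was lower in 8-cell embryo 4 (8 blastomeres, all detected) at -5.43 than in the other 6 embryos, whose lowest value was -3.62. Rnf2 was higher in 4-cell embryo 2, a single whole embryo, at 0.12 than in the other 5, whose highest value was -0.68.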

How the results depend on the processing

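The gene differences were recomputed under other control genes, scales, treatments of undetected values, units and sample sets, the paralog differences (which no scale changes) under the last 3, and the lineage correlations under 5 settings; the other Polycomb genes, similar assays, ESC values and spreads were not; reading whole oocytes and embryos only was added after seeing the data. From MII oocytes to late embryos, Ring1 turned to -0.23 without normalization and was 0.51 with the deposited normalized values, Cbx6 was 2.07 and 2.81 under the same, and Cbx7 was -0.28 without undetected values; no other alternative ended one of these 6 calls or those of the 3 paralog differences. Leaving out either 16-cell embryo kept all 6 calls. Of the called steps, Rnf2 from 2- to 4-cell turned to 0.40 without normalization. Pcgf1 from 8- to 16-cell turned to 0.10 in whole embryos without normalization. Some steps without a call passed in the opposite direction. Without normalization Ring1 fell by 2.73 from zygote to 2-cell (limma adjusted p = 0.0248). In whole embryos without normalization Bmi1 and Rnf2 rose by 1.72 and 2.05 from 8- to 16-cell (adjusted p = 0.000197 and 5.49e-05). There Rnf2 fell by 1.68 from 16- to 32-cell (adjusted p = 0.000759). The number of the 6 genes that changed moved as follows. Without normalization it was 5 from zygote to 2-cell, 1 from 2- to 4-cell, 1 from 4- to 8-cell and 2 from 16- to 32-cell. With sample medians it was 3 from 8- to 16-cell and 1 from 16- to 32-cell. With the deposited values it was 5 from 2- to 4-cell, 3 from 8- to 16-cell and 2 from 16- to 32-cell. Without undetected values it was 5 from zygote to 2-cell and 5 from 2- to 4-cell. From 8- to 16-cell and 16- to 32-cell it was 3 and 3 with every sample as a replicate, 3 and 1 with the embryo as a random block, and 3 and 1 with the label number as a replicate block. With whole 16- and 32-cell embryos added it was 1 from 16- to 32-cell. Without the 2-cell samples titled 2c.A it was 0 from 2- to 4-cell, and without 16-cell embryo 4 it was 0 from 8- to 16-cell, against 1 without embryo 5. In whole oocytes and embryos only it was 0 from 2- to 4-cell and 2 from 16- to 32-cell, and without normalization 0 from 2- to 4-cell, 2 from 8- to 16-cell and 4 from 16- to 32-cell. The cause was not tested. Ring1 from MII oocyte to zygote and Cbx6 from 4- to 8-cell, which also did not pass, were counted apart. Of the other 24 gene steps that did not pass, 14 passed under some alternative, as did 3 of 14 paralog steps. Cbx6 from 4- to 8-cell passed with values below -10 set to -10 (limma adjusted p = 0.0475). The label numbers do not pair samples, with a median correlation of -0.001 over 339 same-numbered pairs across stages; with the replicate block Ring1 rose by 3.82 and Pcgf1 fell by 7.09 from oocytes to late embryos. Pcgf1's rho with the lineage score was 0.52 at the 16-cell stage alone and 0.00 over both stages.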

Other observations

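The list of samples used by the study leaves out 3 samples, which had high control Ct for their stage. In the left-out MII oocyte (control Ct 15.08) Bmi1 was at 6.84, Pcgf1 at 3.59, Rnf2 at 0.87 and Cbx7 at -6.00, while Ring1 and Cbx6 were not detected. In the left-out blastomere of 32-cell embryo 9 (control Ct 22.66) Ring1 was at 2.96, Rnf2 at 1.41, Bmi1 at 3.39, Pcgf1 at 2.80 and Cbx6 at -0.03, all 5 above every 32-cell sample of the main set, while Cbx7 was not detected. In that of 32-cell embryo 11 (control Ct 20.93) Ring1 was at 0.68, while Cbx6 and Cbx7 were not detected.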
